A study of Mus musculus with 12 samples.

Results

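The replication-dependent histone genes encode the linker histone H1 and the 4 core histones H2A, H2B, H3 and H4 that package new DNA. They were taken as the rows of the deposited count table whose names begin with Hist, a cluster number from 1 to 4 and a histone class. The rule gave 68 of 24421 genes, namely 6 of class H1, 18 of H2A, 19 of H2B, 12 of H3 and 13 of H4. The libraries came from mouse E14 embryonic stem cells, a line kept on gelatin with serum and LIF, that all carried dCas_Alkbh5, a fusion of an inactive Cas protein with an eraser of the m6A mark on RNA. The cells received a plasmid for Mycn-gRNA2, for Mycn-gRNA3 or, as control, for a non-targeting guide (NT), with 4 libraries in each of these 3 groups. Blasticidin selection for 3 days was followed in every culture by 5 days with the mTOR inhibitor INK128 at 200 nM, which holds stem cells in a slowly dividing pause, so no unpaused cells were measured. Whether the replicates were separate cultures is not in the labels, and a p-value here covers only the spread between libraries, which may be technical.

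Replication-dependent histone mRNAs are made in S phase and differ from other mRNAs at their 3′ end. Their precursor is cut just after a conserved stem-loop, with the help of the stem-loop binding protein (Slbp) and the U7 particle, and the mature mRNA carries no polyA tail. Selection on polyA, as used for these libraries, should therefore keep little of it, and what is counted can be read-through transcripts with a tail or RNA carried over without one. A bulk library cannot tell a change in the share of cells in S phase from a change in histone RNA per cell.

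The stem-loop is shown here because it decides which histone transcripts a polyA library can hold. A match was found in a GENCODE transcript of 42 of the 68 genes, and the stem with its loop is in capitals, with 7 bases on either side in lower case.
Hist1h1d: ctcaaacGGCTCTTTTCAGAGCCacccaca
Hist1h2ae: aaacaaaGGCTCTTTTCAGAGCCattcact
Hist2h2ac: ccaaaaaGGCTCTTTTTAGAGCCaccaaat
Hist3h2ba: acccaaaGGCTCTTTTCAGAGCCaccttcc
Hist1h3e: ccaaaacGGCTCTTTTAAGAGCCacctcca
Hist1h4f: tctcaaaGGCCCTTTTCAGGGCCacccact
Hist1h4i: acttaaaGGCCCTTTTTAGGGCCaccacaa
The form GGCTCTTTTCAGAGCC occurred in 26 genes of classes H1, H2A, H2B and H3, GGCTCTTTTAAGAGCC in 6 genes of H1, H2B and H3, and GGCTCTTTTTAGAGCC in Hist2h2ac alone among those matched. All 9 matched H4 genes held other forms, namely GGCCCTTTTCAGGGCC, in 7 genes, or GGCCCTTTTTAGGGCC, in 2. In Hist1h4f, for example, the stem-loop lay on the minus strand at chr13:23551291-23551306 of mm10. The outer end of the counted region lay within 100 bases of the stem-loop in 37 genes and more than 100 bases past it in 5, among them Hist1h2be with 1861 bases. In Hist1h2ao, Hist1h2ap and Hist1h4n, also among the 5, the counted region joins 2 intervals on both strands. Its outer end there does not show counted sequence past the stem-loop. GENCODE transcripts of 21 genes continue more than 100 bases past the stem-loop, so for most of these a tailed read-through transcript would be counted only over its part before the end of the counted region.

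Histone genes together took 29785 of 295767746 endogenous reads, or 0.0101%, with 0.00594% to 0.0148% in single libraries. The genes lie in clusters on chromosome 13, 3 and 11, with Hist4h4 alone on chromosome 6. Reads were found for 59 genes, and 50 passed the filter on low counts: 5 of H1, 11 of H2A, 14 of H2B, 9 of H3 and 11 of H4. Only 6 genes averaged 100 or more reads a library, and these held 47.0% of all histone reads.

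Per length, the H2A gene Hist1h2af (chr13:23533911-23534378) had the highest level, a normalised read count of 42.1 CPM per kilobase averaged over all 12 libraries. It was followed by the H4 gene Hist1h4d with 19.9, the H3 gene Hist1h3e with 9.41, the H1 gene Hist1h1e with 8.30 and the H2B gene Hist1h2bn with 8.25 CPM per kilobase. The next in their classes were Hist1h2bg with 7.56, Hist1h2bc with 6.63, Hist1h1c with 6.59, Hist1h1d with 5.14, Hist1h4i with 4.97, Hist1h3c with 3.63, Hist1h2ab with 3.46, Hist3h2a with 3.43, Hist1h4a with 3.34 and Hist1h3d with 2.75 CPM per kilobase. Histone coding sequences are close copies of each other, which limits these levels: in the median gene 66.5% of 100-base windows occurred in no other gene's transcript, and 25 genes had under 50%. Hist1h2af had 34.7% and Hist1h4d 100%.

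The other 9 genes had 0 reads in every library, which allows up to 0.0101 CPM over all libraries together, for counting error only. These were Hist1h2ao, Hist1h2ap, Hist1h2bq, Hist1h2br, Hist1h4m, Hist2h2aa1, Hist2h2aa2, Hist2h3c1 and Hist2h3c2. Each of the 9 shares its counted interval with another gene, so the 0 does not show that the gene was silent. A further 9 genes had reads but too few to test, namely Hist1h2bp, Hist1h3h, Hist1h2ad, Hist1h4n, Hist2h2ab, Hist3h2bb-ps and the testis genes Hist1h1t, Hist1h2aa and Hist1h2ba. Hist1h1t, the linker histone of spermatocytes, had 8, 1, 0 and 5 reads in Mycn-gRNA2 replicates 1 to 4, 9, 0, 0 and 6 reads in Mycn-gRNA3, and 3, 1, 0 and 2 reads in NT.

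Libraries held 17248564 to 33819855 endogenous reads, and synthetic ERCC RNAs, added to RNA from 200000 cells, give a second scale. Endogenous reads per ERCC read were higher in the guide libraries by 0.39 on the log2 scale (exact two-sided permutation test over libraries, p = 0.00404), so a gene that keeps its share of the transcriptome reads about that much higher per ERCC read. Mycn, the gene the guides are named for, averaged 236 ± 26.7 CPM in Mycn-gRNA2 libraries, 276 ± 16.7 CPM in Mycn-gRNA3 libraries and 141 ± 4.17 CPM in NT libraries (SD, n = 4 each). E14 is known as a male line, yet the summed CPM of the 4 Y-linked genes was 32.4 to 83.8 in Mycn-gRNA2, 46.1 to 63.6 in Mycn-gRNA3 and 0.0449 to 0.181 in NT, so a difference in the cultures and the effect of a guide cannot be told apart in any comparison with NT. Mycn-gRNA2 replicate 1 stood apart, with a highest correlation of 0.984 with any other library, where each of the other 11 libraries reached at least 0.993. Calls with both guides, here and below, are for the mean of both guide groups against NT, not for each guide alone. The 10 stem cell markers were all detected, 5 fell with both guides, and their summed level was 4442 to 5174 CPM in Mycn-gRNA2, 4905 to 5186 CPM in Mycn-gRNA3 and 5635 to 6185 CPM in NT. Of the 12 primitive endoderm markers 7 rose and 1 fell with both guides, of 8 tested fibroblast markers 5 rose and 1 fell, of 6 tested trophoblast markers 2 rose and 0 fell, and the 6 spermatogenic markers were too low to test. Over all genes 14.9% were called higher and 13.0% lower in the fit behind these calls. The part of these markers in the histone levels was not tested.

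Summed over all 68 genes, histone RNA was higher on average with either guide, but the groups overlapped. The sum was 151, 122, 76.1 and 110.1 CPM in Mycn-gRNA2 replicates 1 to 4. It was 143, 70.8, 82.0 and 118 CPM in Mycn-gRNA3 and 99.1, 86.5, 58.9 and 96.3 CPM in NT. Of the 8 guide libraries 5 lay above every NT library, and the other 3 lay within the NT range. The means were 115 ± 31.2 CPM in Mycn-gRNA2, 104 ± 33.3 CPM in Mycn-gRNA3 and 85.2 ± 18.3 CPM in NT (SD, n = 4 each), and the mean log2 sum differed from NT by 0.42 for Mycn-gRNA2 and 0.25 for Mycn-gRNA3. Without Mycn-gRNA2 replicate 1 the difference was 0.27 for Mycn-gRNA2, without NT replicate 3 it was 0.25, and without Mycn-gRNA3 replicate 1 it was 0.08 for Mycn-gRNA3. No p is given for these sums.

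**Figure D1:**
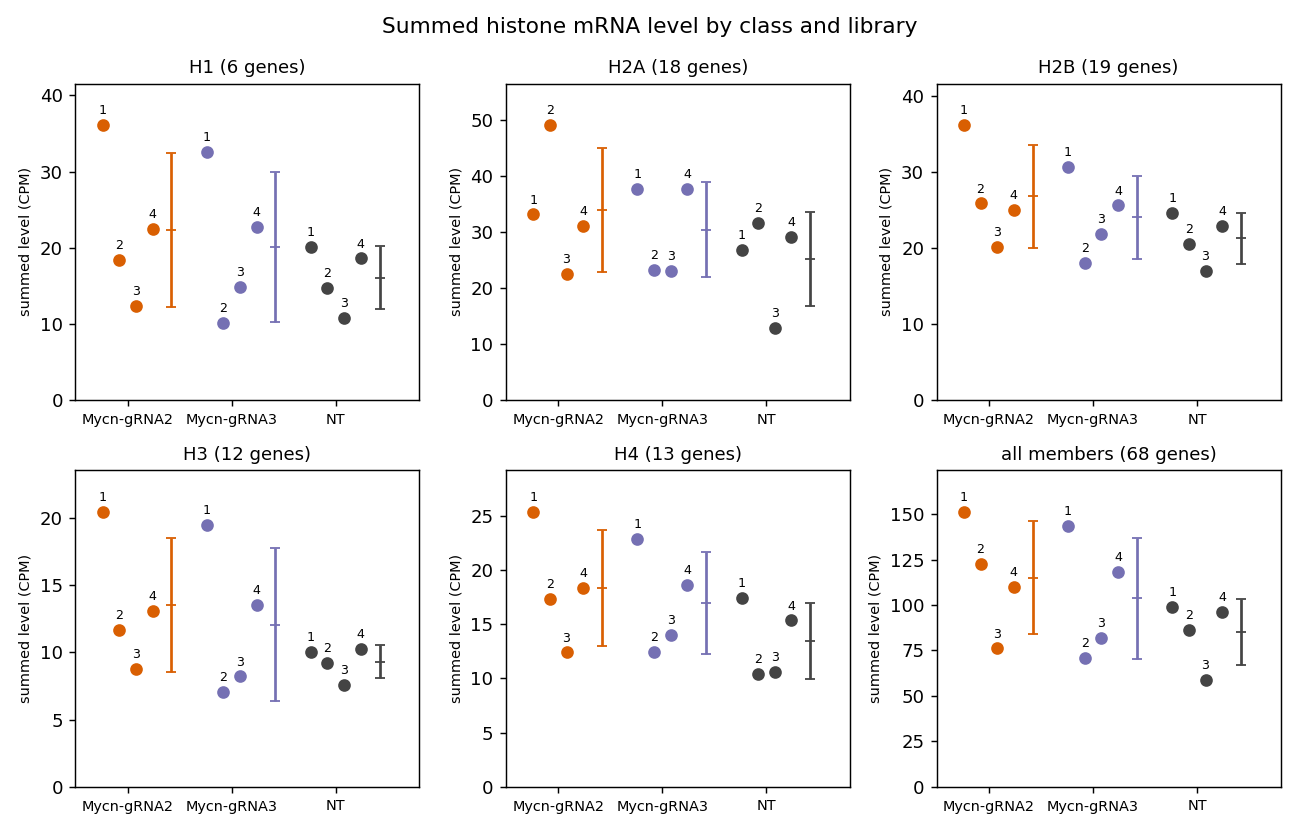
Summed level (CPM) of the genes of each histone class and of all 68, by group; points are libraries with their replicate numbers, and the bar beside them is the mean ± SD (n = 4). Replicate 1 of each guide is the highest point of its group in every class but H2A, and guide and NT points overlap in every panel.

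By class, the difference in mean log2 sum, both guides minus NT, was 0.31 for H1, 0.39 for H2A, 0.24 for H2B, 0.37 for H3 and 0.39 for H4. Without Mycn-gRNA2 replicate 1 it was 0.18 for H1, 0.38 for H2A, 0.16 for H2B, 0.26 for H3 and 0.30 for H4. With single libraries left out in turn it ran over 0.14 to 0.46 for H1, 0.09 to 0.53 for H2A, 0.14 to 0.31 for H2B, 0.24 to 0.48 for H3 and 0.28 to 0.52 for H4. The lowest of these came without NT replicate 3 for H1, H2A and H2B, without Mycn-gRNA3 replicate 1 for H3 and without NT replicate 2 for H4. The linker histone H1 sum was 36.1, 18.4, 12.3 and 22.5 CPM in Mycn-gRNA2, 32.6, 10.1, 14.9 and 22.7 CPM in Mycn-gRNA3, and 20.1, 14.8, 10.8 and 18.6 CPM in NT. Replicates 1 and 4 of both guides were above every NT library, while Mycn-gRNA3 replicate 2 was below all of them. H2B summed to 36.2, 25.9, 20.1 and 25 CPM in Mycn-gRNA2, 30.7, 18, 21.8 and 25.6 CPM in Mycn-gRNA3, and 24.6, 20.5, 17.0 and 22.9 CPM in NT. Here 5 of 8 guide libraries exceeded the NT range. H3 gave 20.5, 11.7, 8.77 and 13.1 CPM in Mycn-gRNA2, 19.5, 7.07, 8.22 and 13.5 CPM in Mycn-gRNA3, and 10.1, 9.24, 7.60 and 10.3 CPM in NT, again with 5 of 8 above. H4 gave 25.4, 17.3, 12.4 and 18.4 CPM in Mycn-gRNA2, 22.8, 12.4, 14.01 and 18.6 CPM in Mycn-gRNA3, and 17.4, 10.4, 10.6 and 15.4 CPM in NT, with 4 of 8 above.

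In H2A the highest library of Mycn-gRNA2 and of NT was replicate 2, as it was for Hist1h2af, its most abundant gene. Hist1h2af, which held 19.1% of all histone reads, had 16.1, 39.7, 14.5 and 19.0 CPM in Mycn-gRNA2, 22.1, 15.96, 15.8 and 26.1 CPM in Mycn-gRNA3, and 15.5, 24.5, 6.13 and 21.0 CPM in NT. Its highest library was Mycn-gRNA2 replicate 2 and its lowest NT replicate 3, and the groups overlapped. Its log2 difference of 0.33 became 0.05 without NT replicate 3, and was at most 0.57 with any single library left out. Without Hist1h2af, the other 17 H2A genes summed to 17.0, 9.42, 8.06 and 12.2 CPM in Mycn-gRNA2, 15.7, 7.29, 7.31 and 11.7 CPM in Mycn-gRNA3, and 11.3, 7.18, 6.77 and 8.18 CPM in NT, in which the libraries of each group came in the same order as for H1.

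The replicate number went with the level of most histone genes, and did so in all 3 groups. Among the 50 tested genes the highest library of a group was replicate 1 for 37 genes in Mycn-gRNA2, 38 in Mycn-gRNA3 and 30 in NT. Over all 14497 tested genes replicate 1 was the highest for 36.8% in Mycn-gRNA2, 33.6% in Mycn-gRNA3 and 21.4% in NT. The lowest library was replicate 3 for 35 histone genes in Mycn-gRNA2, replicate 2 for 31 and replicate 3 for 15 in Mycn-gRNA3, and replicate 3 for 34 in NT. Averaged over the 3 groups, the summed level of all 68 genes was 131, 93.3, 72.4 and 108 CPM in replicates 1, 2, 3 and 4, a wider range than that between the group means of 115, 104 and 85.2 CPM. The labels do not say what a replicate number stands for.

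**Figure D2:**
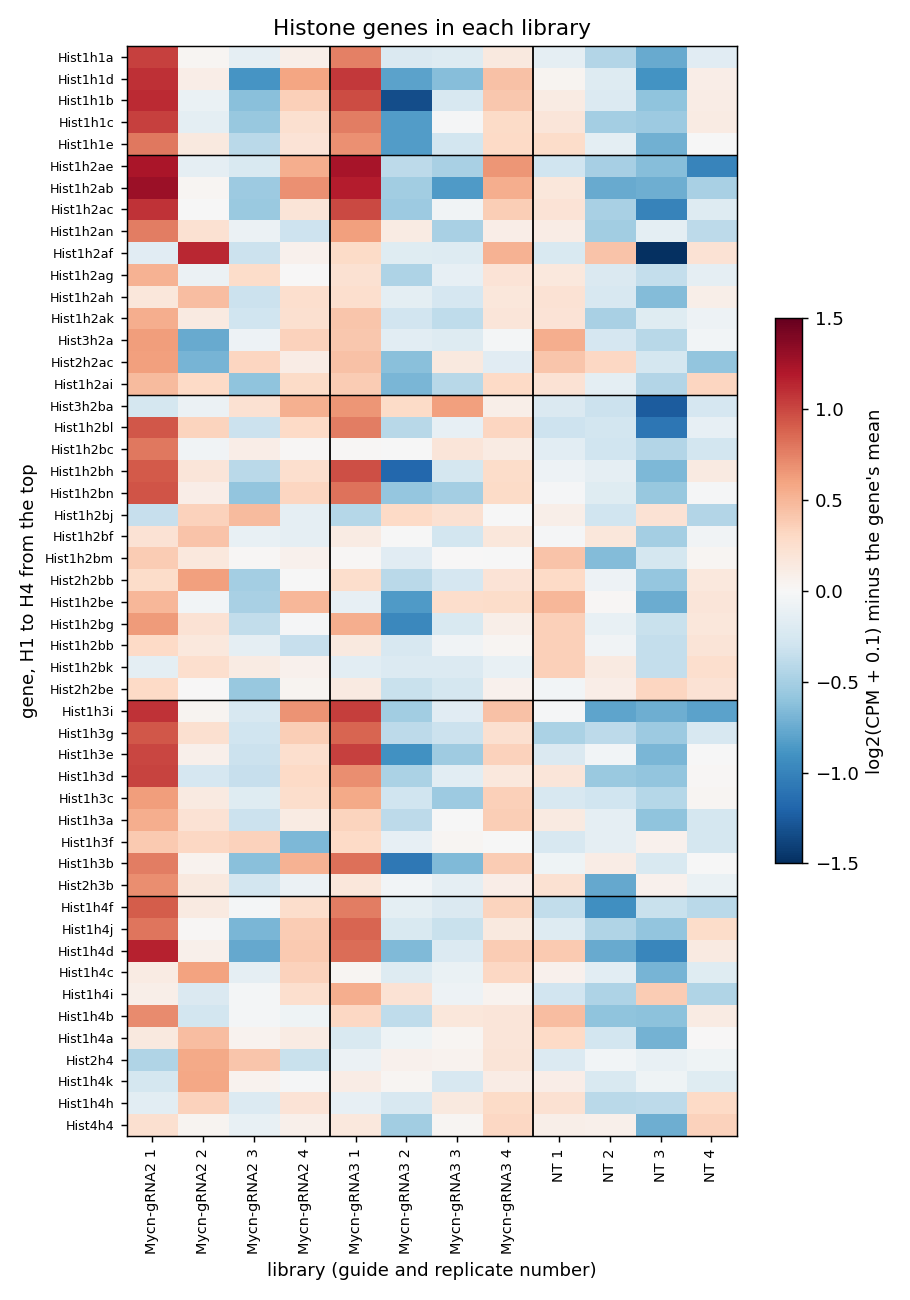
Each of the 50 tested histone genes (rows, by class) in each library (columns, by group and replicate number); colour is log2(CPM + 0.1) minus the gene's mean over the 12 libraries. The columns of replicate 1 of both guides are red for most genes, and those of replicate 3 of Mycn-gRNA2 and NT and replicate 2 of Mycn-gRNA3 are mostly blue.

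**Figure D3:**
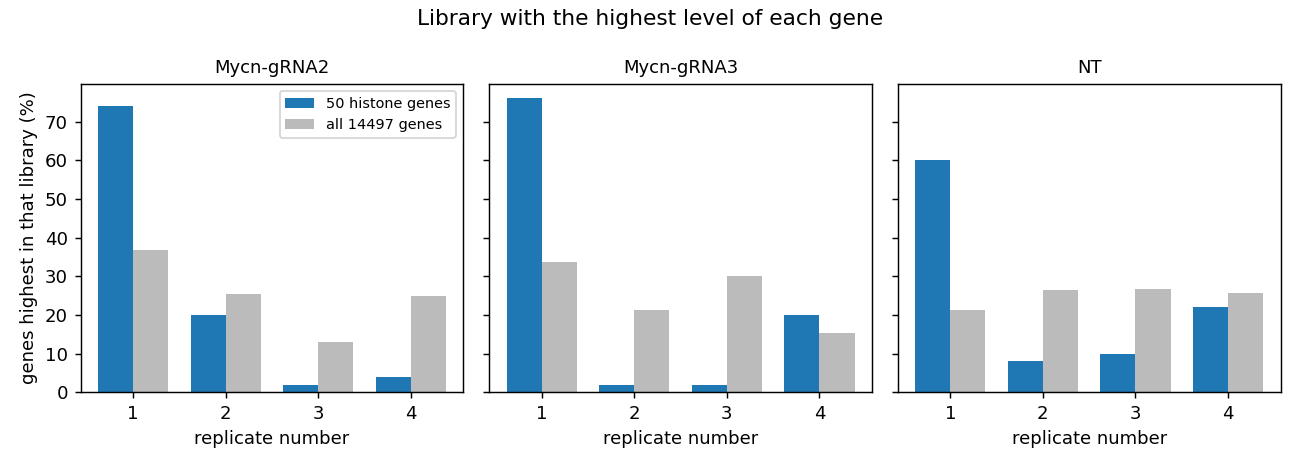
Percent of genes whose highest library within a group carries each replicate number, for the 50 tested histone genes (blue) and all 14497 tested genes (grey). Replicate 1 is the highest for 74% of histone genes in Mycn-gRNA2, 76% in Mycn-gRNA3 and 60% in NT.

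An RNA without a polyA tail followed an order of libraries close to that of the histone sum. Its part in the histone levels was not tested, and the covariate fits given with the tests only show how the calls change with it. Rn45s, the ribosomal RNA precursor, took 128502, 126599, 84906 and 96912 CPM in Mycn-gRNA2, 102215, 80757, 87784 and 108621 CPM in Mycn-gRNA3, and 120689, 68489, 76724 and 98538 CPM in NT. The order of the 4 libraries was the same for Rn45s and the histone sum in Mycn-gRNA2, and differed in a swap of replicates 1 and 4 in Mycn-gRNA3 and of replicates 2 and 3 in NT. The match in Mycn-gRNA2 depended on Hist1h2af. Without that gene the sum was 135, 82.7, 61.6 and 91.1 CPM there, and its order differed from Rn45s in a swap of replicates 2 and 4. Rn45s itself did not pass the test between guides and NT (log2 difference 0.16, SE 0.154, edgeR adjusted p = 0.471). The 18 other RNAs without a tail, among them small nuclear and small Cajal body RNAs, summed to 6.78, 15.3, 9.40 and 8.91 CPM in Mycn-gRNA2, 8.19, 8.46, 8.91 and 10.9 CPM in Mycn-gRNA3, and 10.1, 9.87, 7.72 and 10.2 CPM in NT, so the library highest in histones was the lowest in these. S phase genes, whose mRNAs carry tails, summed to 4554 CPM in Mycn-gRNA2 replicate 1, the lowest of all 12 libraries, and to at most 5508 CPM in Mycn-gRNA2 replicate 2.

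**Figure D4:**
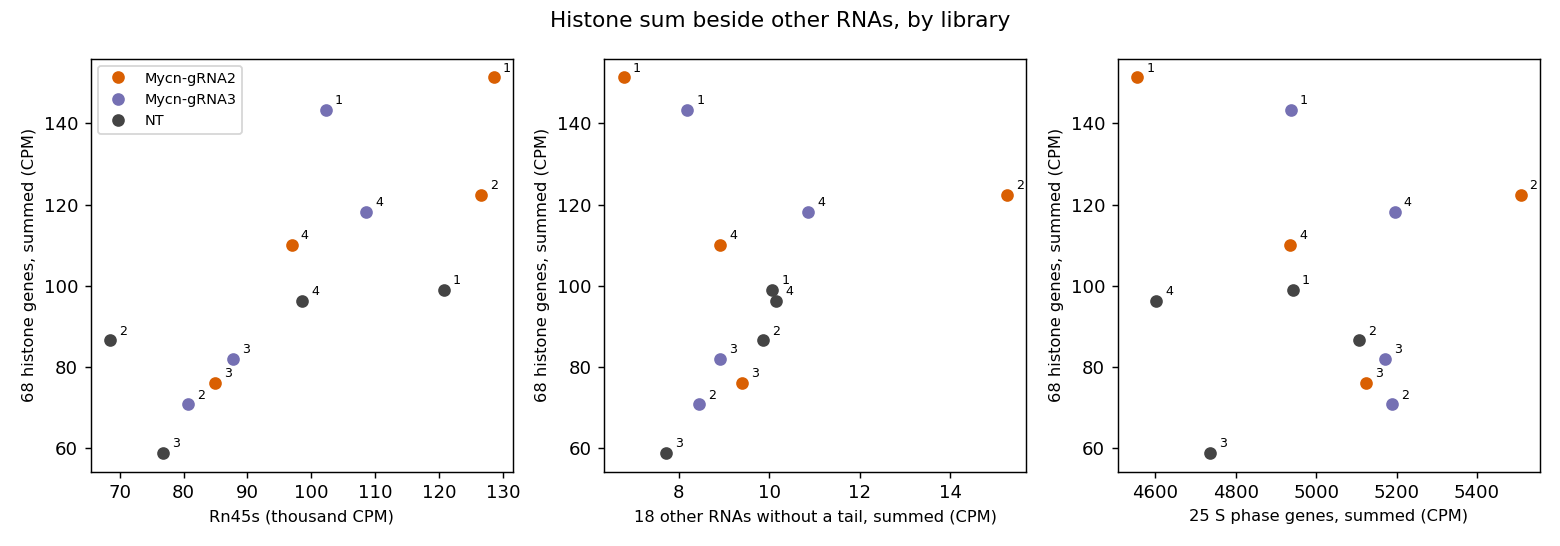
Summed level of the 68 histone genes (CPM, vertical) against Rn45s (in 1000 CPM), 18 other RNAs without a polyA tail (CPM) and 25 S phase genes (CPM) in each library, coloured by group and labelled with the replicate number. Mycn-gRNA2 replicate 1 is highest on both axes of the left panel and lowest on the horizontal axis of the other panels, while NT replicate 1, with the third highest Rn45s, has a histone sum of 99.1 CPM.

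Tested gene by gene relative to the transcriptome, 4 of the 50 histone genes rose with both guides against NT and 0 fell (edgeR quasi-likelihood test, Benjamini-Hochberg adjusted p under 0.05). These calls are for the mean of both guide groups, and those of each guide alone are given further below. Over all genes 14.9% were called higher and 13.0% lower, a larger share higher than the 4 of 50 (8.00%) of this fit, which has no term for the replicate number. At an unadjusted p under 0.05 the count was 8, with no count over all genes to set beside it. DESeq2 called 6, or 12.0%, where 15.6% of all genes were called higher. Most estimates were nevertheless above 0: 47 of 50 histone genes had a positive log2 fold change, with a median of 0.28, where 49.7% of all genes did and their median was 0.00 (-0.00269). The 4 genes were Hist3h2ba and Hist1h2bc of class H2B, Hist1h3i of H3 and Hist1h4f of H4; none of the 5 tested H1 genes or the 11 tested H2A genes passed.

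Hist3h2ba, an H2B gene outside the large clusters at chr11:58948911-58949372, had 0.565, 0.656, 0.835 and 1.06 CPM in Mycn-gRNA2, 1.17, 0.875, 1.12 and 0.749 CPM in Mycn-gRNA3, and 0.587, 0.538, 0.237 and 0.572 CPM in NT. These rest on 6 to 31 reads a library. All Mycn-gRNA3 libraries lay above NT, Mycn-gRNA2 replicate 1 lay within the NT range, and NT replicate 3 was the lowest. It rose by 0.87 on the log2 scale (SE 0.261, adjusted p = 0.0239), a call that ended without NT replicate 3 (adjusted p = 0.0903, and 0.00871 to 0.0474 without any other library).

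Hist1h4f, which encodes H4 and lies at chr13:23551286-23551643, had 2.00, 1.13, 1.00 and 1.25 CPM in Mycn-gRNA2, 1.82, 0.911, 0.869 and 1.32 CPM in Mycn-gRNA3, and 0.767, 0.494, 0.792 and 0.748 CPM in NT. Every guide library was above every NT library, in 11 to 46 reads each. It rose by 0.87 (SE 0.264, adjusted p = 0.0248), and the call ended without NT replicate 2 or NT replicate 4, with adjusted p up to 0.0835.

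Hist1h2bc, an H2B gene known to give polyadenylated transcripts as well, had 8.74, 4.83, 5.39 and 5.06 CPM in Mycn-gRNA2, 5.09, 4.99, 5.68 and 5.45 CPM in Mycn-gRNA3, and 4.47, 4.04, 3.68 and 4.13 CPM in NT. Again the groups did not overlap, and Mycn-gRNA2 replicate 1 was far above the rest. Its rise was 0.47 (SE 0.151, adjusted p = 0.0319), and the call ended without any single one of NT replicates 2, 3 and 4 or Mycn-gRNA3 replicates 3 and 4, with adjusted p up to 0.102. Hist1h4f and Hist1h2bc were the 2 histone genes with every guide library above every NT library; 8.56% of all genes were. None of the 50 lay below NT in this way, where 6.87% of all genes did. With Mycn-gRNA2 alone 4 lay above NT, with Hist1h2ae and Hist1h1a added, where 10.1% of all genes did, and with Mycn-gRNA3 alone 3, with Hist3h2ba added, where 20.8% did.

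Hist1h3i, an H3 gene at chr13:21782915-21783397, had 1.09, 0.477, 0.376 and 0.793 CPM in Mycn-gRNA2, 1.05, 0.292, 0.398 and 0.659 CPM in Mycn-gRNA3, and 0.451, 0.224, 0.237 and 0.220 CPM in NT, from 5 to 26 reads a library. NT replicate 1 overlapped the lower libraries of both guides. Its rise was 1.17 (SE 0.417, adjusted p = 0.0497), and the call ended without any one of 7 libraries, namely NT replicates 2, 3 and 4 and replicates 1 and 4 of both guides, with adjusted p up to 0.131.

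The next genes by adjusted p missed the threshold. The H2A gene Hist1h2ae had 2.00, 0.715, 0.668 and 1.21 CPM in Mycn-gRNA2, 2.02, 0.583, 0.543 and 1.32 CPM in Mycn-gRNA3, and 0.632, 0.538, 0.475 and 0.352 CPM in NT (log2 difference 1.18, SE 0.424, adjusted p = 0.0520). Replicates 1 and 4 of both guides were its highest libraries, and replicates 2 and 3 of Mycn-gRNA3 lay within the NT range. The H2B gene Hist1h2bl had 3.04, 1.97, 1.21 and 1.93 CPM in Mycn-gRNA2, 2.70, 1.13, 1.41 and 1.95 CPM in Mycn-gRNA3, and 1.22, 1.26, 0.673 and 1.41 CPM in NT (log2 difference 0.75, SE 0.290, adjusted p = 0.0679). Replicate 1 of both guides was its highest library, and replicate 3 of Mycn-gRNA2 and replicate 2 of Mycn-gRNA3 lay among the NT values. For the H3 gene Hist1h3g the values were 1.61, 0.953, 0.626 and 1.06 CPM in Mycn-gRNA2, 1.53, 0.583, 0.615 and 0.958 CPM in Mycn-gRNA3, and 0.542, 0.583, 0.515 and 0.660 CPM in NT (log2 difference 0.78, SE 0.310, adjusted p = 0.0771). The linker histone gene Hist1h1a had 3.78, 1.85, 1.63 and 1.93 CPM in Mycn-gRNA2, 3.11, 1.53, 1.56 and 2.01 CPM in Mycn-gRNA3, and 1.63, 1.30, 1.03 and 1.58 CPM in NT (log2 difference 0.65, SE 0.268, adjusted p = 0.0870). Both genes kept the pattern of a high replicate 1 with either guide and of Mycn-gRNA3 replicates 2 and 3 within the NT range. At the other end, Hist2h2be, an H2B gene counted over 2618 bases and known for tailed transcripts, averaged 1.51 ± 0.378 CPM in Mycn-gRNA2, 1.45 ± 0.247 CPM in Mycn-gRNA3 and 1.72 ± 0.193 CPM in NT (SD, n = 4 each; log2 difference -0.22, adjusted p = 0.355).

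The gene with the highest level per kilobase in each class did not pass relative to the transcriptome. By total reads the top H2B gene was Hist1h2bc, with 1523 reads against 1048 for Hist1h2bn, and Hist1h2bc did pass. For Hist1h4d the values were 14.8, 6.97, 3.84 and 8.69 CPM in Mycn-gRNA2, 11.9, 4.12, 5.72 and 8.59 CPM in Mycn-gRNA3, and 8.71, 3.86, 3.29 and 7.26 CPM in NT, a log2 difference of 0.48 with an SE of 0.373. Replicates 1 and 4 were the high libraries in NT and in Mycn-gRNA3, and replicate 1 alone in Mycn-gRNA2 exceeded 10 CPM. Log2 differences were 0.33 for Hist1h2af, 0.28 for Hist1h1e, 0.49 for Hist1h3e and 0.40 for Hist1h2bn, with adjusted p from 0.308 for Hist1h3e to 0.493 for Hist1h2af. Their SEs of 0.277 for Hist1h1e to 0.373 for Hist1h4d were about as large as the differences, so a change of this size was not detectable in these genes.

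Set apart by length, the 2 tested genes counted over more than 1000 bases were Hist1h2be and Hist2h2be, with log2 differences of 0.04 and -0.22. Of the 9 tested genes listed as known for polyadenylated transcripts, 1 rose, Hist1h2bc, and 0 fell, with a median log2 difference of 0.10. The shares over all genes were 14.9% higher and 13.0% lower.

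Each guide taken alone gave fewer calls, and both share the NT libraries. With Mycn-gRNA2, Hist1h4f (0.94, SE 0.299, adjusted p = 0.0443) and Hist1h2bc (0.56, SE 0.171, adjusted p = 0.0376) rose, 2 of 50, where 10.1% of all genes were called higher and 7.05% lower. With Mycn-gRNA3, Hist3h2ba rose (1.01, SE 0.286, adjusted p = 0.0180), 1 of 50, where 14.8% of all genes were called higher and 12.2% lower. No histone gene fell with either guide. The unadjusted count was 8 for Mycn-gRNA2 and 5 for Mycn-gRNA3, again with no count over all genes beside it. Median log2 differences were 0.38 and 0.24, and 47 and 43 of the 50 estimates were positive, for Mycn-gRNA2 and Mycn-gRNA3 in that order.

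Without Mycn-gRNA2 replicate 1, the library that stands apart, 3 genes rose with both guides (Hist3h2ba, Hist1h4f and Hist1h2bc), 1 with Mycn-gRNA2 (Hist1h2bc) and 4 with Mycn-gRNA3 (those 3 and Hist1h2ae), out of 51 tested. Over all genes the shares called higher were then 21.9%, 15.2% and 21.9%, and lower 20.2%, 13.0% and 19.2%, in that order of comparisons. The median log2 difference was then 0.25 for both guides and 0.19 for Mycn-gRNA2. With log2 Rn45s CPM as a covariate, an alternative added after seeing the data, Hist3h2ba (adjusted p = 0.0303) and Hist1h4f (0.0461) were still called, Hist1h2bc (0.0665) and Hist1h3i (0.0760) were not, and the median over the 50 genes was 0.15; over all genes 14.7% were called higher and 13.3% lower in that fit.

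Per ERCC read, which stands for a level per cell where extraction yields were equal, 24 of 50 histone genes rose with both guides and 0 fell, where 56.4% of all genes were called higher and 0.931% lower. In this fit the share of histone genes called, 48.0%, was below that of all genes, while their median log2 difference of 0.68 lay above the 0.39 of all genes. By class 1 of 5 tested H1 genes (Hist1h1a), 5 of 11 H2A, 5 of 14 H2B, 6 of 9 H3 and 7 of 11 H4 rose. The H3 genes were Hist1h3a, Hist1h3c, Hist1h3d, Hist1h3f, Hist1h3g and Hist1h3i, with log2 differences of 0.65 for Hist1h3f to 1.58 for Hist1h3i. The H4 genes were Hist1h4a, Hist1h4c, Hist1h4f, Hist1h4i, Hist1h4j, Hist1h4k and Hist2h4, from 0.55 for Hist1h4k to 1.27 for Hist1h4f. With Mycn-gRNA2 alone 11 rose (background 26.3% higher, 0.517% lower), and with Mycn-gRNA3 alone 21 rose (background 60.7% higher, 0.504% lower), with 0 lower in both. Without Mycn-gRNA2 replicate 1 the counts were 27 for both guides, 11 for Mycn-gRNA2 and 29 for Mycn-gRNA3, where 58.2%, 30.1% and 64.8% of all genes were called higher and 1.27%, 0.909% and 0.752% lower. The largest rises with both guides were 1.58 for Hist1h2ae (SE 0.442, adjusted p = 0.00828) and 1.58 for Hist1h3i (SE 0.385, adjusted p = 0.00166), and the lowest adjusted p was that of Hist1h4f (1.27, SE 0.266, adjusted p = 0.000237). Of the 50 genes 11 had every guide library above every NT library on this scale, against 11.5% of all genes, and 0 had every guide library below, against 0.235%. For Mycn-gRNA2 alone 13 lay above NT (11.8% of all genes) and for Mycn-gRNA3 alone 17 (61.2% of all genes).

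**Figure D5:**
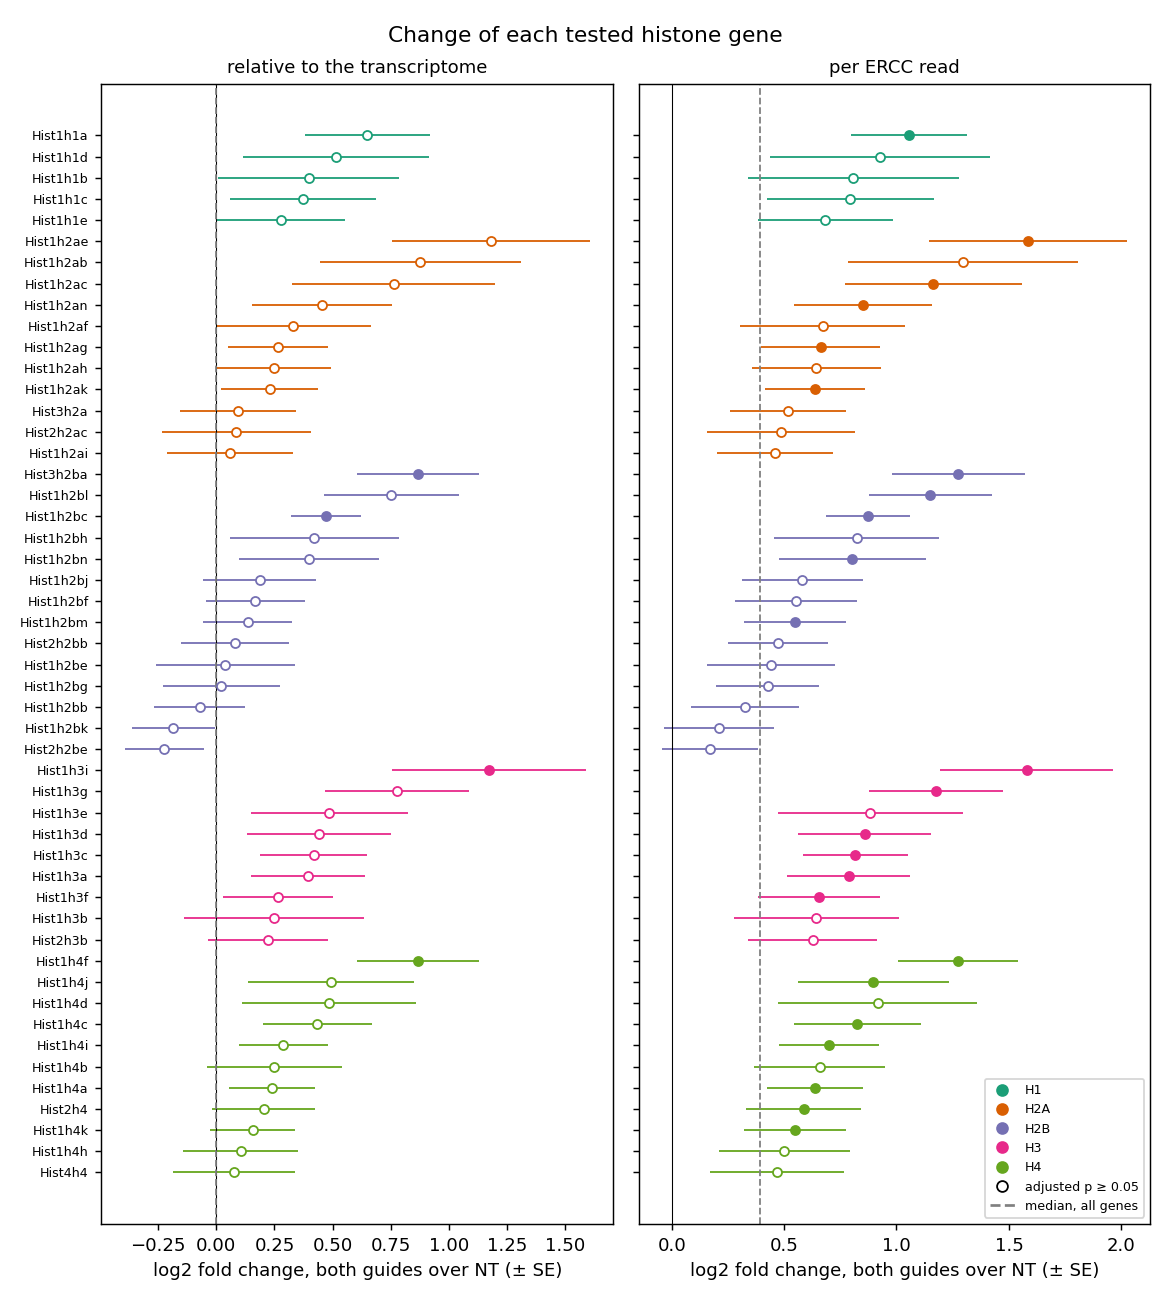
Log2 fold change (± SE) of each tested histone gene, both guides over NT, relative to the transcriptome (left) and per ERCC read (right), coloured by class; filled points have an edgeR adjusted p under 0.05, and the dashed line is the median of all 14497 genes. Filled points number 4 on the left and 24 on the right, and most points lie to the right of the dashed line in both panels.

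Summed per 1000 ERCC reads, all histone genes gave 12.5, 7.81, 6.25 and 10.6 reads in Mycn-gRNA2, 13.6, 6.59, 7.79 and 9.69 in Mycn-gRNA3, and 5.90, 6.37, 3.87 and 6.04 in NT. Only Mycn-gRNA2 replicate 3 among the guide libraries lay within the NT range, and without Hist1h2af all 8 lay above it. The log2 difference was 0.72 for Mycn-gRNA2 and 0.74 for Mycn-gRNA3. Rn45s per ERCC read also rose with both guides, by 0.57 (adjusted p = 0.00208). With log2 Rn45s per ERCC read as a covariate, also added after seeing the data, 2 histone genes rose (Hist1h2bj and Hist2h4) and 1 fell (Hist1h4d), where 22.3% of all genes were called higher and 0.235% lower, and the median histone difference was -0.05. This covariate is divided by the same ERCC reads as the histone levels and itself rose with the guides. The fit therefore cannot tell a part of Rn45s from the shift between the groups. With Rn45s CPM as the covariate on this scale 24 rose and 0 fell, where 67.6% of all genes were called higher and 0.738% lower.

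Between the guides, 0 of 50 histone genes differed for Mycn-gRNA3 against Mycn-gRNA2 on either scale, and 0 at an unadjusted p under 0.05 in edgeR and DESeq2. Over all genes 0% were called in either direction relative to the transcriptome, and 0.00690% higher and 0% lower per ERCC read. Relative to the transcriptome the estimates ran from -0.27 to 0.29, with 2 of 50 above 0 and a median of -0.16. Hist3h2ba had the highest, 0.29 with an SE of 0.263, so a difference of either sign of that order could not be seen. Without Mycn-gRNA2 replicate 1 the median was 0.07, with 32 of 51 above 0.

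Promoters in the RefSeq table, 250 bases before to 50 after the start on GRCm38.p6, matched 61 of the 68 genes, and were read because the genes move together from library to library. CCAAT, on either strand, occurred in 52 of the 61, or 85.2%, against 37.4% of all 32851 promoters in the table. It was found in all matched H1, H2A, H2B and H3 promoters and in 3 of 12 H4 promoters. TATAAA, on either strand, occurred in 35, or 57.4%, against 13.6% of all promoters. The octamer ATTTGCAT, also on either strand, was in 7 of 17 H2A and 6 of 16 H2B promoters and in none of the H1, H3 and H4 promoters, against 1.74% of all. These 3 motifs do not contain each other. Promoters of neighbouring H2A and H2B genes that face apart can overlap, so a single site can count for both genes. This was so for the octamer of Hist1h2ah and Hist1h2bk, for that of Hist1h2ae and Hist1h2bg, and for that of Hist1h2aa and Hist1h2ba. The H2A and H2B counts are therefore not separate. The last 100 bases before the start are shown for an H1 gene and for 3 of the 4 genes called relative to the transcriptome, with CCAAT and TATAAA on either strand in capitals.
Hist1h1a: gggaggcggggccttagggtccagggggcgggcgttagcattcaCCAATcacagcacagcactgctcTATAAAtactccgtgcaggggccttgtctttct
Hist3h2ba: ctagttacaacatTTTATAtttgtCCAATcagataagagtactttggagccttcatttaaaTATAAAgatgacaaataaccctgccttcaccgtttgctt
Hist1h3i: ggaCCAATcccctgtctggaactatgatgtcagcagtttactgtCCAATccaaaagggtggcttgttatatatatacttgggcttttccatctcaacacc
Hist1h4f: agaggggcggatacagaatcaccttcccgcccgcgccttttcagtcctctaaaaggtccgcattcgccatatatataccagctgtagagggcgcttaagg
They lie at chr13:23763568-23763667 on the plus strand, chr11:58948811-58948910 on the plus strand, chr13:21783398-21783497 on the minus strand and chr13:23551669-23551768 on the minus strand. The first 3 hold CCAAT within these 100 bases and the H4 promoter holds neither motif there. A match is a description of the letters and shows no bound factor.

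H2A and H2B genes often share a promoter region, and 11 pairs had starts facing apart, 172 to 305 bases from each other. Some partners were far apart in level and others close. Hist1h2ae had 1.65 CPM per kilobase and its partner Hist1h2bg 7.56, and Hist1h2ac had 0.956 and Hist1h2bc 6.63, while Hist1h2ag had 1.38 and Hist1h2bj 1.51, and Hist1h2ah had 0.968 and Hist1h2bk 1.39 CPM per kilobase. Log2 differences between guides and NT were 1.18 for Hist1h2ae and 0.02 for Hist1h2bg, a gap between genes that was not tested.

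Genes that process or degrade histone mRNA were measured well. Of 26, 3 rose relative to the transcriptome with both guides and 0 fell, where 14.9% of all genes were called higher and 13.0% lower. The same shares apply to the calls relative to the transcriptome in the gene lists that follow. Lsm10, a U7 particle subunit, had 12.3, 9.65, 10.7 and 12.0 CPM in Mycn-gRNA2, 12.5, 12.4, 13.4 and 12.8 CPM in Mycn-gRNA3, and 6.95, 7.58, 6.49 and 7.35 CPM in NT. The groups did not overlap, and it rose by 0.76 (SE 0.0856, adjusted p = 3.78e-05). Zfp473, a zinc finger protein that joins the U7 particle to the stem-loop complex, rose by 0.36 (SE 0.0715, adjusted p = 0.00214), and Clp1, a cleavage factor subunit, by 0.28 (adjusted p = 0.0109). Slbp, which binds the stem-loop, averaged 93.6 ± 13.96 CPM in Mycn-gRNA2, 85.3 ± 5.59 CPM in Mycn-gRNA3 and 91.9 ± 4.13 CPM in NT (SD, n = 4 each; log2 difference -0.04, SE 0.0810, adjusted p = 0.742). Per ERCC read Slbp was 0.34 higher with the guides (adjusted p = 0.0178), close to the shift of all genes.

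Of 18 genes for histone transcription, Ccne1 (0.59, adjusted p = 0.00721) and Ccna2 (0.55, adjusted p = 0.000118), cyclins that activate Cdk2 in S phase, rose, and Pou2f1, the octamer-binding factor Oct1, fell by 0.22 (adjusted p = 0.0143). Npat, the coactivator at histone gene clusters, averaged 114 ± 30.4 CPM in Mycn-gRNA2, 93.0 ± 5.34 CPM in Mycn-gRNA3 and 114 ± 5.59 CPM in NT (log2 difference -0.15, adjusted p = 0.352). Its value of 159 CPM in Mycn-gRNA2 replicate 1 was the highest of all libraries. Of 21 histone chaperones, Daxx, which loads the H3.3 variant, rose by 0.22 (adjusted p = 0.0304), and its partner Atrx (-0.34, adjusted p = 0.00383) and the H3-H4 carrier Nasp (-0.24, adjusted p = 0.0320) fell.

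Replacement histone genes, most of which are transcribed through the cell cycle and polyadenylated, were abundant in the same libraries. Of 11 tested, 0 rose and 3 fell: H3f3a, which encodes H3.3 (-0.24, adjusted p = 0.00701), H1f0, the linker variant of resting cells (-0.27, adjusted p = 0.0119), and the macroH2A gene H2afy2 (-0.19, adjusted p = 0.0283). Their summed level was 1890 to 2248 CPM in Mycn-gRNA2, 2216 to 2306 CPM in Mycn-gRNA3 and 2063 to 2321 CPM in NT. Mycn-gRNA2 replicate 1, the library with the highest replication-dependent sum, had the lowest replacement sum. Of 25 S phase genes, Pcna (0.25), Mcm4 (0.18), Mcm5 (0.29) and Ccne1 rose, with adjusted p from 0.00721 for Ccne1 to 0.0265 for Mcm4. Mcm7 (-0.14, adjusted p = 0.0477) and Pola1 (-0.28, adjusted p = 0.00538) fell, and the median over the 25 was 0.04, against 0.28 over the 50 histone genes.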

How the data were processed

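PolyA RNA of 12 libraries was analysed. The deposited table holds raw counts per gene. Trimming used Trim Galore 0.4.0 and counting featureCounts (Subread 1.5.0) on mm10, with edgeR 3.32.1 also listed, per the submitters' processing notes. The aligner, strand setting and treatment of multiply mapped reads, which bear on genes as alike as the histones, are not given in the sources used. The deposited log2 values of 12042 genes, 14 of them histone genes, differ from log2(count + 0.5) by 1 constant in each library, to within 5.1e-14, and were used in 1 alternative.

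Counts of all genes were fitted with edgeR 4.0.16 in R 4.3.3 (quasi-likelihood F test, robust, filterByExpr, a term per group), with TMM factors over endogenous genes or library sizes set to ERCC totals; CPM values are TMM-scaled. Adjusted p-values are over 14497 genes. DESeq2 1.42.0, limma 3.58.1, other scalings and filters, a replicate block and left-out libraries were alternatives. Scripts were tested on simulated data. Intervals of 0 counts use 3 reads. Members and lists were chosen with earlier results of these data known. Named genes were the 3 highest per kilobase in each class, called members by adjusted p, called genes of the lists, Mycn, Slbp and Npat; others were chosen after their values were seen. Stem-loops were searched in GENCODE vM21 transcripts and promoters taken from RefSeq.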

Additional observations from a re-analysis of the deposited data

Results flagged for a closer look

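In 6 of 87 groups of 4 libraries checked, over class sums and named genes, the highest or lowest library stood far from the other 3; chance flags about 1 in 20. With Mycn-gRNA2, replicate 1 had 8.74 CPM of Hist1h2bc (4.83 to 5.39 CPM in the others) and 159 CPM of Npat (94.8 to 101 CPM). In NT, replicate 1 had 0.451 CPM of Hist1h3i (0.220 to 0.237 CPM), replicate 2 had 0.494 CPM of Hist1h4f (0.748 to 0.792 CPM), and replicate 3 had 2.57 CPM of Hist1h4i (1.39 to 1.58 CPM) and 0.237 CPM of Hist3h2ba (0.538 to 0.587 CPM). Thus 3 of the 4 genes called relative to the transcriptome had an NT library apart from the others.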

How the results depend on the processing

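Counts of histone genes called higher are given for both guides, Mycn-gRNA2 and Mycn-gRNA3 in that order, from 4, 2 and 1 relative to the transcriptome. They were 24, 11 and 21 with ERCC totals, 27, 11 and 21 with TMM over ERCC RNAs, 11, 9 and 7 with the replicate block, 0, 0 and 0 in replicates 1 and 2 alone, 4, 3 and 3 in replicates 3 and 4 alone, 2, 2 and 0 with a mean CPM of at least 1 (25 genes tested), and 2, 0 and 1 with Rn45s CPM as a covariate. With only the groups compared Mycn-gRNA2 gave 1 and Mycn-gRNA3 gave 3. Leaving out single libraries gave 1 to 7, 0 to 2 and 1 to 4. Over all genes the shares called higher were 16%, 11.0% and 16.3% with the replicate block, 1.04%, 0.221% and 1.38% in replicates 1 and 2, and 22.7%, 17.7% and 21.4% in replicates 3 and 4. They were 14.7%, 10.0% and 14.6% with a mean CPM of at least 1. With TMM over ERCC RNAs they were 58.4%, 27.2% and 63.6%, and with Rn45s CPM as a covariate 14.7%, 9.45% and 15.3%. With only the groups compared they were 6.86% for Mycn-gRNA2 and 22.5% for Mycn-gRNA3. Without single libraries they ran over 11.1% to 21.9%, 7.05% to 15.2% and 10.8% to 21.9%. Per ERCC read, from 24, 11 and 21, the counts were 10, 7 and 9 with a mean CPM of at least 1, 33, 22 and 30 with the replicate block, 9, 2 and 12 in replicates 1 and 2, 26, 21 and 20 in replicates 3 and 4, 19 for Mycn-gRNA2 and 31 for Mycn-gRNA3 with only the groups compared, 5, 3 and 5 of 14 genes with limma on the deposited log2 values, and 2, 0 and 3 with Rn45s per ERCC read as a covariate, where 1, 0 and 1 fell. Leaving out libraries gave 13 to 31, 6 to 23 and 9 to 29. Over all genes these shares were 51.0%, 21.6% and 56.6% with the block, 7.60%, 2.79% and 19.2% in replicates 1 and 2, and 60.7%, 55.2% and 53.0% in replicates 3 and 4. They were 59.1%, 26.7% and 63.9% with a mean CPM of at least 1, and 61.1%, 22.6% and 68.1% with limma. With only the groups compared they were 20.2% for Mycn-gRNA2 and 73.0% for Mycn-gRNA3. With Rn45s per ERCC read they were 22.3%, 6.44% and 33.2%. Without single libraries they ran over 37.4% to 69.2%, 12.4% to 53.6% and 46.2% to 67.5%. For both guides the histone share was below that of all genes in the main fits. With the block it was above, at 22.0% relative to the transcriptome and 66% per ERCC read. Some fits on fewer libraries also put it above without the block. Per ERCC read these were replicates 1 and 2 alone and the fit without Mycn-gRNA3 replicate 2. On both scales the fit without Mycn-gRNA2 replicate 3 did so as well. The place of the histone share relative to all genes thus depends on the block and on the libraries used. The causes were not tested; the stricter filter and the log2 table hold fewer genes.

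Over all genes, correlations of deviations between guide and NT libraries with the same replicate number were 0.0329 to 0.37, not all above 0.1. These values do not settle whether the block is needed for histone genes, whose levels went with the replicate number in all 3 groups. Between the guides the correlations were 0.211 to 0.498, and 0 histone genes were called with or without the block. The summed histone level stayed above NT in every alternative run on the sums, namely other scalings, Hist1h2af left out and single libraries left out. Without single libraries the difference was 0.17 to 0.43 for both guides, 0.25 to 0.60 for Mycn-gRNA2 and 0.08 to 0.42 for Mycn-gRNA3. With ERCC totals it was 0.74 for Mycn-gRNA3. The block, the fits on fewer replicates, the stricter filter and the covariates were not run on the sums.

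Near 0, signs changed. Hist1h2bg was -0.00410 with the replicate block, -0.0433 in replicates 3 and 4, -0.215 with Rn45s, and -0.107 to 0.146 without single libraries, below 0 without NT replicates 2 and 3, replicate 1 of either guide and Mycn-gRNA3 replicate 4. Hist3h2a was -0.0462 in replicates 1 and 2, -0.0197 with Rn45s, and -0.0372 to 0.337 without single libraries, below 0 without NT replicate 3 and Mycn-gRNA2 replicate 1. Slbp was 0.345 with ERCC totals, 0.351 with TMM over ERCC RNAs and -0.0837 to 0.00256 without single libraries, above 0 without Mycn-gRNA2 replicate 4. Npat was 0.249, 0.254 and, in replicates 1 and 2, 0.0165. At 5 to 31 reads a library, as for Hist3h2ba and Hist1h3i, counting error limits what could be called.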
